A study of Arabidopsis thaliana with 6 samples.

Results

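A set of 30 genes, of 33602 in the table, combined at least a 2-fold induction by phosphate deficiency in wild-type Arabidopsis thaliana roots with a lower level in roots of the phl2 mutant on the same deficient medium. They were picked by their measured values. Each library was first divided by its median over the 6070 genes with at least 1 RPKM (reads normalized to transcript length and library total) in all 6 columns and multiplied by 2, so that a level of 2 is that of the median widely expressed gene. A member then had a level of at least 2 in both deficient wild-type libraries, at least 2 times the higher sufficient wild-type value in each of them, and a mean in phl2 of at most 0.65 times the deficient wild-type mean. Organelle loci and 7 named loci were left out by the rule, and 4 of all these loci together met the limits. The same deficient wild-type values stand on top of the induction and below the phl2 ratio, so the levels in these 3 groups describe the members and are not evidence for their response.

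Plants short of phosphate switch on a large set of genes in the root, among them phosphate transporters, secreted phosphatases, signalling RNAs and enzymes that replace phospholipids by galactolipids and sulpholipids. MYB-CC factors of the PHR1 family drive much of this set by binding the element GNATATNC in promoters, and PHL2 is a member of that family. Sulphate assimilation and the sulphur-rich glucosinolates, defence compounds of the cabbage family, share precursors and regulators with the sulphur deficiency response. Glutathione S-transferases, peroxidases and chitinases belong to stress and defence responses in many tissues.

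The study asked how far the response of the root to phosphate deficiency needs PHL2. Roots of seedlings aged 8 days gave strand-specific libraries of polyadenylated RNA, with 2 columns in each of 3 groups: phl2 mutants on phosphate-deficient medium, Col-0 wild type on phosphate-deficient medium, and Col-0 wild type on phosphate-sufficient medium. There was no phl2 group on sufficient medium, so a lower starting level in phl2 and a smaller induction cannot be told apart. The labels do not name the phl2 allele, nor whether each replicate was grown separately.

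Both phl2 columns stand apart as a pair: 17207 of the 21171 genes above 0 in both (81.3%) had the same ratio of replicate 6 to replicate 5, 1.156, within a tolerance of 0.001 on the natural log scale, while no other pair of columns reached more than 11.0%. The other 3964 genes all lay below that ratio. The columns were therefore taken to share reads and counted as 1 sample, without an SD. For the members they differed by at most 5.14%, and both values are given only to show the table as it stands. Judged by the worth of 1 read in low genes, the table rests on about 617217 to 913897 reads per library, which is 5.44% to 9.07% of the totals the RPKM values were divided by. That share was lowest in the phl2 columns and highest in deficient wild type. PHL2 itself (AT3G24120) had levels of 0.938 and 0.745 in the phl2 columns, against 1.11 and 1.27 in deficient and 1.09 and 1.83 in sufficient wild type, so its transcript was still detected in phl2. PHR1 had 0.791 and 0.808 in phl2, against 1.16 and 0.895 in deficient and 1.04 and 0.866 in sufficient wild type.

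The members' median level was 1.69 in phl2, 3.17 in deficient wild type and 0.613 in sufficient wild type. The ratio of phl2 to deficient wild type ran from 0.284 to 0.646 with a median of 0.561, and 5 members lay at 0.5 or below. Induction in wild type, deficient over sufficient, had a median of 4.25-fold and ran from 2.36-fold to 43.8-fold over the 29 members above 0 in sufficient wild type. Most members are genes of moderate level: only AT3G22121 and PRXCA had a mean of at least 5 in deficient wild type. By the induction limit alone 185 of 2852 genes at the minimum level (6.49%) were induced, by the phl2 limit alone 125 (4.38%) were lower, and the 30 members are 16.2% of the induced genes. The 155 other induced genes had a median level of 4.02 in deficient wild type, a median induction of 3.82-fold and a median phl2 ratio of 0.886.

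**Figure D1:**
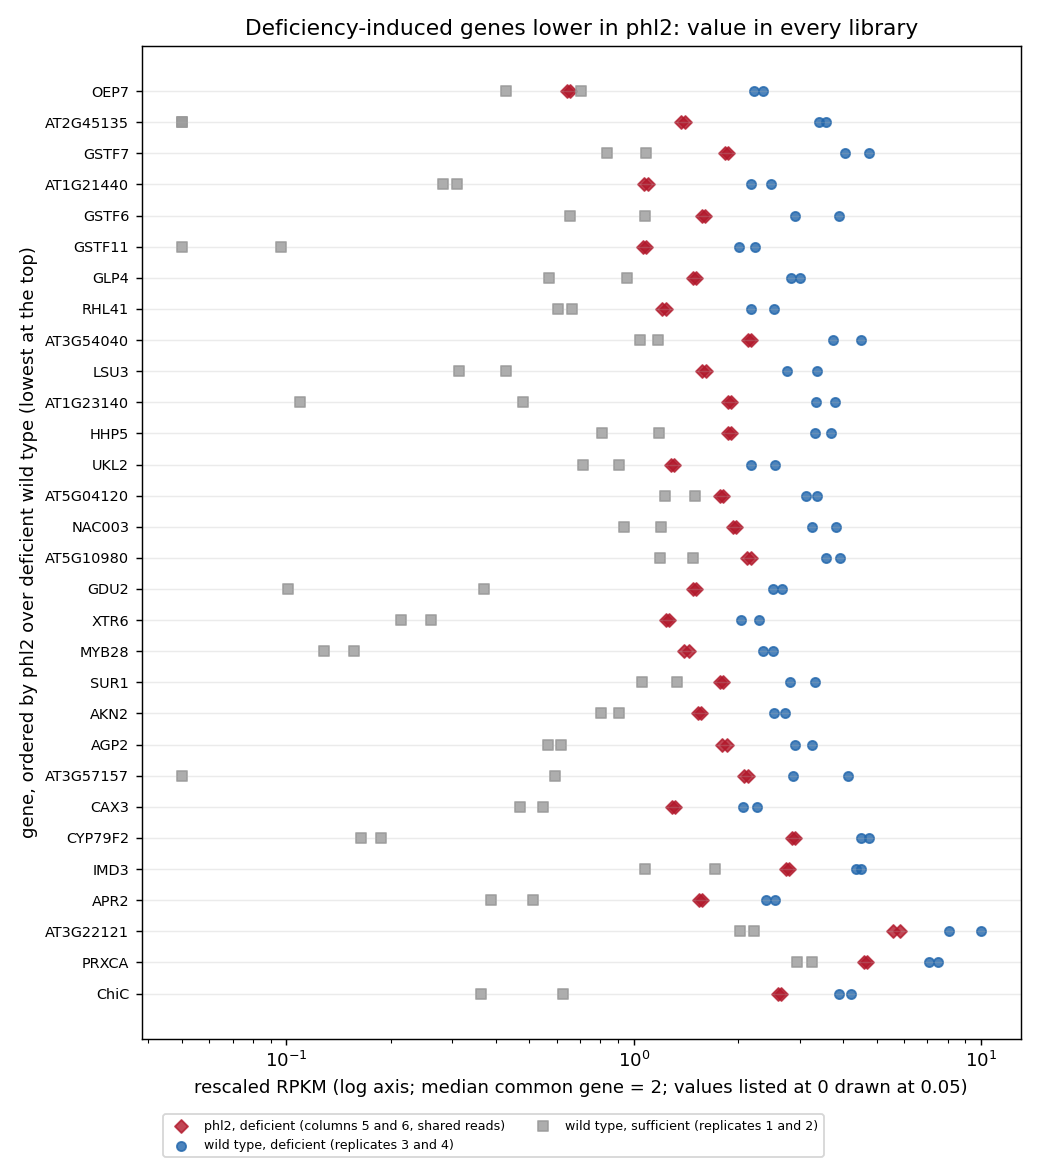
Rescaled RPKM of each of the 30 members on a log axis, 1 point per library or column, with genes ordered from the lowest phl2 ratio at the top. All phl2 points lie left of both deficient wild-type points, and in 29 of the 30 genes they lie right of both sufficient wild-type points. OEP7, at the top, is the exception.

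Of the members that stand in a gene list, most belong to sulphur metabolism: a list of sulphur deficiency genes and a list of glucosinolate genes together held 6 members among 17 induced genes. LSU3, one of the small proteins that accumulate under low sulphur, had levels of 1.58 and 1.61 in phl2, against 3.36 and 2.76 in deficient and 0.430 and 0.314 in sufficient wild type. APR2, which reduces activated sulphate on the way to cysteine, had 1.54 and 1.57 in phl2, against 2.54 and 2.40 in deficient and 0.512 and 0.388 in sufficient wild type. In both genes phl2 lay between the wild-type groups, above both sufficient and below both deficient libraries.

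The glucosinolate members cover a regulator and several steps of synthesis. MYB28, the transcriptional activator of methionine-derived glucosinolates, had 1.44 and 1.40 in phl2, against 2.35 and 2.52 in deficient and 0.156 and 0.128 in sufficient wild type. CYP79F2, which turns chain-elongated methionine into aldoximes, had 2.85 and 2.91 in phl2, against 4.52 and 4.76 in deficient and 0.188 and 0.164 in sufficient wild type. These are steep inductions in wild type, 17.1-fold and 26.3-fold on the means, and phl2 stood at 9.99 and 16.4 times the sufficient wild-type mean. GSTF11, a glutathione S-transferase assigned to the same pathway, had 1.06 and 1.08 in phl2, against 2.01 and 2.23 in deficient wild type and values of 0 and 0.0967 in sufficient wild type, where it rests on about 0 and 1 read. SUR1, the C-S lyase that forms the thiohydroximate shared by all glucosinolates, had 1.77 and 1.81 in phl2, against 2.81 and 3.32 in deficient and 1.33 and 1.06 in sufficient wild type. SUR1 was the least induced of the 4, at 2.56-fold, and lay at 1.5 times sufficient wild type in phl2.

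Further members have roles next to these lists, which was noticed after their values were seen. AKN2, an APS kinase that supplies activated sulphate for glucosinolate synthesis, had a mean of 1.55 in phl2, against 2.63 ± 0.137 in deficient and 0.856 ± 0.0707 in sufficient wild type (SD, n = 2 each in wild type). IMD3, an isopropylmalate dehydrogenase of leucine synthesis, had a mean of 2.78 in phl2, against 4.43 ± 0.0858 in deficient and 1.39 ± 0.447 in sufficient wild type (SD, n = 2 each). Its near copy IMD1 (93.8% identical over 69.0% of the transcript), the isoform used in methionine chain elongation, is no member and had means of 5.76 in phl2, 8.21 in deficient and 1.59 in sufficient wild type, a phl2 ratio of 0.701.

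The lowest median ratio of any list, 0.443, came from a pair of glutathione S-transferases. Both are members, so their ratios lie at or below 0.65 by the rule. GSTF6 and GSTF7, phi-class enzymes that conjugate glutathione and are induced in many stress responses, were the only induced genes of the 11 in the jasmonate and defence list. GSTF7 had 1.83 and 1.87 in phl2, against 4.75 and 4.07 in deficient and 0.838 and 1.08 in sufficient wild type, a phl2 ratio of 0.419. GSTF6 had 1.57 and 1.6 in phl2, against 3.89 and 2.91 in deficient and 0.654 and 1.07 in sufficient wild type, a phl2 ratio of 0.467. On a scale with sufficient wild type at 0% and deficient wild type at 100%, phl2 stood at 25.7% for GSTF7 and at 28.5% for GSTF6. They are tandem neighbours on chromosome 1 (TAIR10.1), GSTF7 at 658578 to 659980 and GSTF6 at 661088 to 662475, both on the minus strand with 1107 bases between them. Their coding sequences, of 630 and 627 bases, are 94.3% identical, so reads may have been split between them and they are not independent members. The first 180 coding bases from RefSeq show how close they are, with the 5 differing bases in capitals, 5′ to 3′ on the coding strand.
GSTF7: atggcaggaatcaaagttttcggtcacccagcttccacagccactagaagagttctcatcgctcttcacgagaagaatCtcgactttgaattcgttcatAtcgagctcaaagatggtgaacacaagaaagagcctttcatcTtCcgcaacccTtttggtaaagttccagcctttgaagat
GSTF6: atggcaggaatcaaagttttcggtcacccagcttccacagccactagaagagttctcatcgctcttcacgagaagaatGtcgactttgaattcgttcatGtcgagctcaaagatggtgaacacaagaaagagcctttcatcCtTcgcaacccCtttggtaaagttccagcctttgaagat

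Among other enzymes, the members hold AT1G21440, annotated as a phosphoenolpyruvate carboxylase family protein, at 1.07 and 1.1 in phl2, against 2.48 and 2.18 in deficient and 0.282 and 0.309 in sufficient wild type. AT5G04120, annotated as a phosphoglycerate mutase family protein, had 1.81 and 1.77 in phl2, against 3.13 and 3.38 in deficient and 1.23 and 1.5 in sufficient wild type. The pair differ in where phl2 stood: it was at 3.67 times sufficient wild type for AT1G21440 and at 1.31 times for AT5G04120. UKL2, a uridine kinase-like protein of pyrimidine salvage, had a mean of 1.29 in phl2, against 2.36 ± 0.258 in deficient and 0.812 ± 0.136 in sufficient wild type (SD, n = 2 each).

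Cell wall and secreted proteins form a further group by annotation. PRXCA, a secreted class III peroxidase, was the highest protein-coding member, with 4.60 and 4.69 in phl2, against 7.09 and 7.50 in deficient and 3.25 and 2.94 in sufficient wild type. It was also the least induced member, at 2.36-fold, and its copy PRXCB (89.6% identical) had a phl2 ratio of 0.728. ChiC, a chitinase of class V, had 2.60 and 2.65 in phl2, against 4.23 and 3.89 in deficient and 0.364 and 0.626 in sufficient wild type. XTR6, a xyloglucan endotransglycosylase that remodels wall polymers, had 1.24 and 1.27 in phl2, against 2.30 and 2.03 in deficient and 0.261 and 0.214 in sufficient wild type. In phl2, XTR6 and ChiC stood at 5.27 and 5.31 times the sufficient wild-type mean. AGP2, an arabinogalactan protein of the cell surface, had means of 1.82 in phl2, 3.08 in deficient and 0.592 in sufficient wild type. GLP4, a germin-like protein, had means of 1.5 in phl2, 2.92 in deficient and 0.764 in sufficient wild type.

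Regulators of several kinds were present besides MYB28. RHL41, also known as ZAT12, a zinc finger factor induced by oxidative and light stress, had 1.21 and 1.24 in phl2, against 2.54 and 2.18 in deficient and 0.605 and 0.662 in sufficient wild type. NAC003, a NAC domain factor, had 1.93 and 1.97 in phl2, against 3.25 and 3.82 in deficient and 0.938 and 1.2 in sufficient wild type. AT2G45135, annotated as a RING/U-box protein, had 1.37 and 1.40 in phl2 and 3.41 and 3.58 in deficient wild type, and was listed at 0 in both sufficient wild-type libraries. It had the second lowest ratio, 0.396, and no fold over sufficient wild type is given. The histone family gene AT5G10980 had means of 2.14 in phl2, 3.75 in deficient and 1.33 in sufficient wild type.

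Membrane and transport proteins included the member with the lowest ratio. OEP7, a protein of the outer plastid envelope, had 0.643 and 0.657 in phl2, against 2.36 and 2.22 in deficient and 0.428 and 0.704 in sufficient wild type. Its phl2 values thus lay inside the range of sufficient wild type, and they rest on about 5 reads per column. GDU2, a glutamine dumper protein that promotes amino acid export, had 1.48 and 1.51 in phl2, against 2.51 and 2.67 in deficient and 0.369 and 0.101 in sufficient wild type. CAX3, a vacuolar calcium and proton exchanger, had 1.29 and 1.32 in phl2, against 2.26 and 2.06 in deficient and 0.547 and 0.470 in sufficient wild type. HHP5, a heptahelical membrane protein, had means of 1.89 in phl2, 3.50 in deficient and 0.995 in sufficient wild type. Its copy HHP4, which is 97.4% identical over 89.9% of the transcript, had a ratio of 0.656, just outside the limit, and the values of the pair are uncertain because reads may match both. Exons of HHP5 also overlap exons of AT4G38310 on the same strand, and the part of that overlap in its values was not tested. AT1G23140, a protein with a calcium-dependent lipid-binding domain, had means of 1.89 in phl2, 3.56 in deficient and 0.295 in sufficient wild type, while AT3G54040, annotated as a PAR1 protein, had means of 2.15 in phl2, 4.14 in deficient and 1.11 in sufficient wild type.

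The 2 members without a coding sequence are RNAs of unknown function. AT3G22121, a long noncoding RNA, was the most abundant member, with 5.86 and 5.57 in phl2, against 8.08 and 9.96 in deficient and 2.02 and 2.21 in sufficient wild type. AT3G57157, annotated as a noncoding RNA, had 2.08 and 2.13 in phl2, against 4.15 and 2.87 in deficient and 0.595 and 0 in sufficient wild type. The ratio of deficient replicate 3 to replicate 4 was 1.45 for AT3G57157, the highest among the members, whose median was 1.06 and whose lowest was 0.811. That gene rests on about 13 to 19 reads in deficient wild type and about 7 in phl2.

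**Figure D2:**
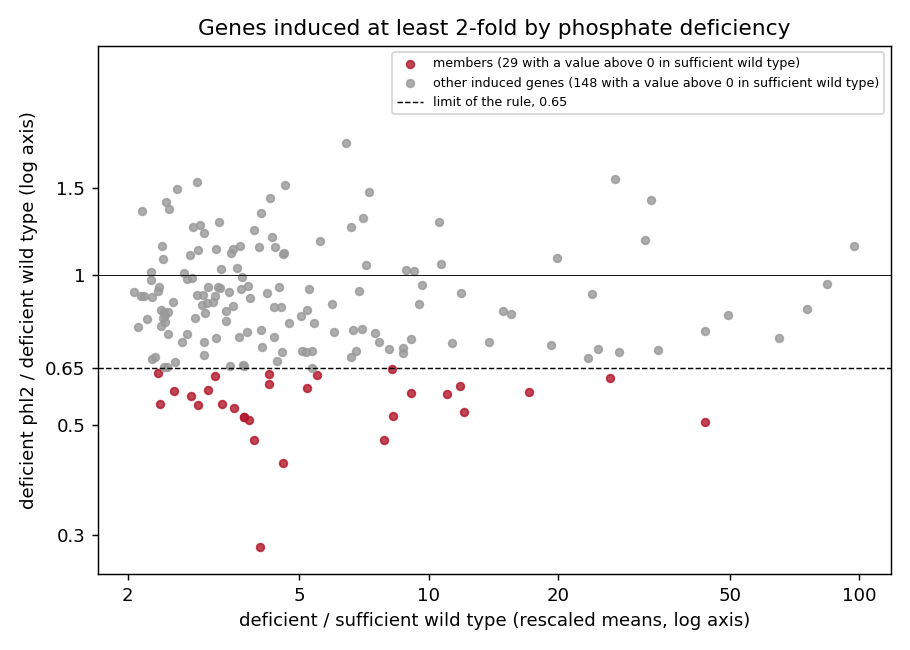
Ratio of phl2 to deficient wild type against the induction in wild type, both from rescaled means on log axes, for the induced genes with a value above 0 in sufficient wild type. The 29 members shown are spread over inductions from 2.36-fold to 43.8-fold and lie below 0.65 by construction. The other induced genes reach from 2.07-fold to 97.4-fold, and the median ratio of all 155 of them was 0.886.

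The rule itself limits what can be said of phosphate starvation genes. Genes of phosphate uptake, phosphatases and lipid exchange are among the 7 named loci it leaves out. None of the 7 stands in the lists used here. Of all loci left out, named and organelle together, 4 met its limits. The remaining genes in the lists of phosphate signalling, transport, phosphatases and nucleases, and membrane lipid remodelling number 75 measured, of which 20 were induced and 0 were members. The phl2 ratios of these 20 lay between 0.709 and 1.18 with a median of 0.858, and neither the count nor the range covers the loci left out. SPX1, a sensor protein of phosphate status, had means of 7.48 in phl2, 8.14 ± 0.822 in deficient and 0.340 ± 0.0218 in sufficient wild type (SD, n = 2 each in wild type). The noncoding RNA IPS1, which sequesters a phosphate-responsive miRNA, had means of 5.26 in phl2, 5.46 ± 0.775 in deficient and 0.0650 ± 0.0919 in sufficient wild type (SD, n = 2 each). Both lie within 1 SD of deficient wild type in phl2. Among the 20, the membrane lipid genes came closest to the limit, with 8 induced genes at ratios from 0.709 to 0.937. MGD3, a galactolipid synthase, had 3.19 and 3.25 in phl2, against 4.61 and 4.47 in deficient and 0.172 and 0.0943 in sufficient wild type, a ratio of 0.709. SQD1 and SQD2, which make the sulpholipid, had ratios of 0.733 and 0.766.

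By list, the 6 induced signalling genes had phl2 ratios of 0.831 to 1.18, the 2 transport genes 0.941 and 1.06, and the 4 phosphatase and nuclease genes 0.831 to 0.948. The 3 induced genes of the carbon bypass list had 0.768 to 0.883, the 1 nitrogen gene (NIA2, a nitrate reductase) 0.778, and the 1 touch and early stress gene (TCH3, a calmodulin-like protein) 0.878. All 5 induced root hair genes stood at 0.993 or above in phl2, with EXT12, a wall extensin, at 1.49. Root hair genes outside the limits of level or induction went both ways, among them RHD6 at 0.503, EXPA7 at 0.732 and EXPA18 at 1.34. The lists for iron and coumarins, anthocyanins and flavonoids, hypoxia and reference genes held no induced gene. In all, 8 of the 30 members stand in 1 of the 15 lists.

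The sulphur and glucosinolate lists were themselves split. Of 33 measured genes 17 were induced, and their phl2 ratios ran from 0.506 to 1.28 with a median of 0.703. The sulphur list had 9 induced genes and 2 members, with a median ratio of 0.735, and the glucosinolate list 8 induced genes and 4 members, with a median of 0.662. LSU1, the neighbour of LSU3 on chromosome 3 with 1760 bases between them, had 3.82 and 3.91 in phl2, against 3.01 and 3.04 in deficient and 0.273 and 0.299 in sufficient wild type. Unlike LSU3 it was thus higher in phl2 than in either deficient library. MAM1, an enzyme of methionine chain elongation, also stood above deficient wild type, at 5.95 and 6.04 in phl2, against 5.65 and 5.38 in deficient and 0.245 and 0.312 in sufficient wild type. CYP79F1, the near copy of CYP79F2 (91.7% identical over 60.3% of the transcript), had means of 0.731 in phl2, 0.692 in deficient and 0.0360 in sufficient wild type.

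**Figure D3:**
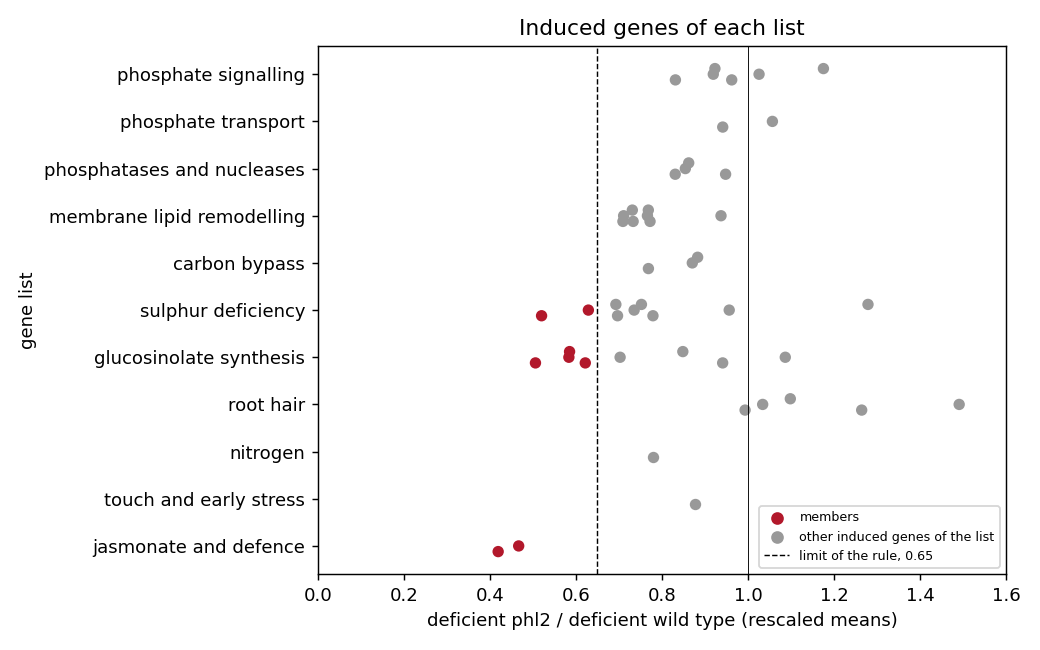
Ratio of phl2 to deficient wild type, from rescaled means, for the induced genes of the 11 lists that hold one, with members in red and the limit of 0.65 dashed. The loci left out by the rule, some of them phosphate starvation genes, are not drawn. The 20 drawn genes of the 4 phosphate and lipid lists at the top lie between 0.709 and 1.18, and the 17 of the sulphur and glucosinolate lists spread from 0.506 to 1.28 with 6 below the limit.

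The members' levels in phl2 lay between the wild-type means. The phl2 mean minus the sufficient wild-type mean, as a share of the same difference for deficient wild type, had a median of 39.2% and ran from 4.84% in OEP7 to 60.7% in CYP79F2, against a median of 85.2% in the other induced genes. In 29 members phl2 lay above both sufficient libraries, as in all 155 other induced genes and 47.5% of genes at the minimum level. In 15 members it was at least 2-fold above both, against 130 of the 155 other induced genes and 6.49% of genes at the minimum level. Of the 29 members above 0 in sufficient wild type, phl2 was over 5 times the sufficient wild-type mean in 8, with GSTF11 highest at 22.2 times, and under 2 times in 15, with OEP7 lowest at 1.15 times. All 30 lay below both deficient libraries, as do 94 of the 155 other induced genes and 39.3% of genes at the minimum level.

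**Figure D4:**
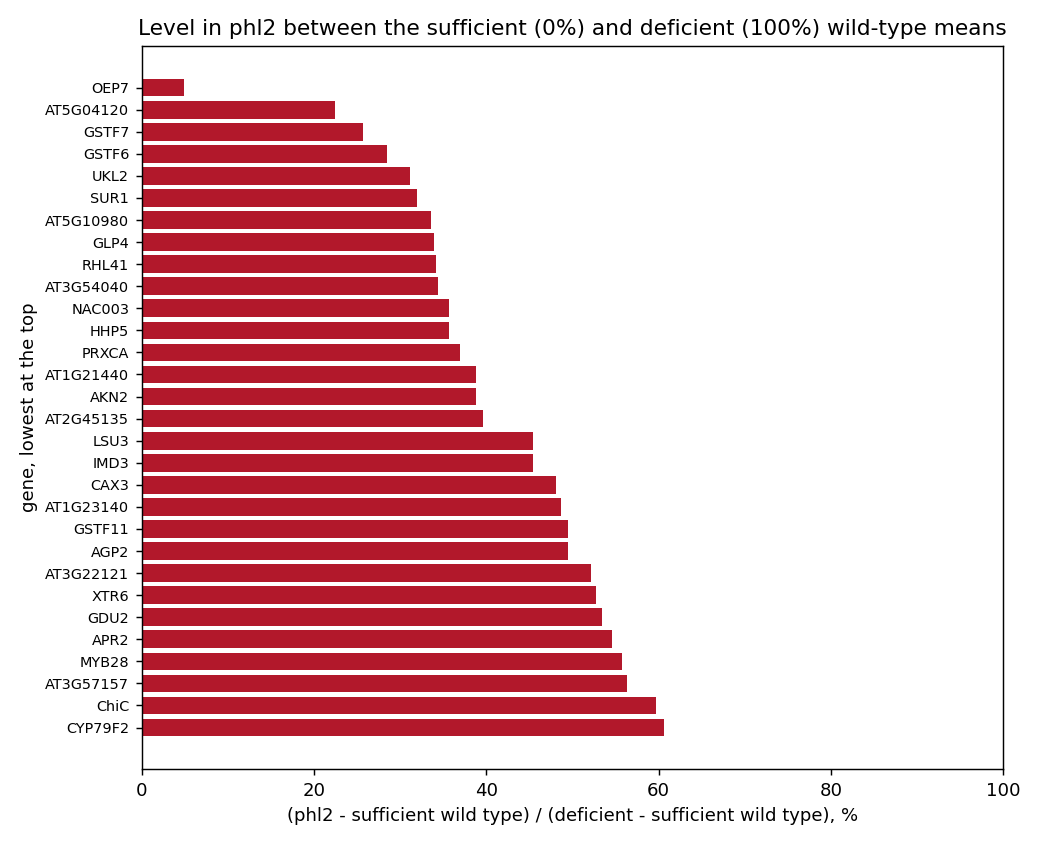
Position of the phl2 mean between the sufficient (0%) and deficient (100%) wild-type means, in percent of their difference, for each of the 30 members, with 1 bar per gene computed from group means. The bars run from 4.84% for OEP7 to 60.7% for CYP79F2. With phl2 counted as 1 sample, no error bar is drawn.

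A fit over the 11463 genes that reached 1 RPKM in at least 2 columns gives the background for these counts. In limma with Benjamini-Hochberg adjustment at 0.05, deficient against sufficient wild type called 1263 genes higher (11.0%) and 1122 lower (9.79%), with 30 of the 30 members higher at adjusted p from 0.00015 to 0.00451. For phl2 against deficient wild type 12 genes were higher (0.105%) and 2 lower (0.0174%), and 0 members were called, at adjusted p from 0.114 to 0.366. In that comparison 29 members had an unadjusted p under 0.05, as did 2288 of all genes. For phl2 against sufficient wild type 628 genes were higher (5.48%) and 580 lower (5.06%), and 15 members were higher. Those 15 are CYP79F2, GSTF11, MYB28, LSU3, APR2, AT2G45135, AT1G21440, AT1G23140, AGP2, AT3G22121, AT3G57157, ChiC, GDU2, XTR6 and CAX3. All these contrasts share samples with the rule that picked the members, so the members' counts describe them and test nothing.

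The size of the difference between phl2 and wild type depends on how the libraries are scaled. On the values as deposited all genes together were shifted, by a median log2 change of -0.48 for phl2 against deficient wild type and 0.33 for deficient against sufficient wild type, compared with -0.06 and 0.06 after rescaling. Without rescaling, the same limits would pick 444 genes, all 30 members among them, and limma would call 2230 genes lower and 33 higher in phl2 than in deficient wild type, 29 members among the lower ones. The members' median phl2 ratio would then be 0.360. The ratios given here are therefore relative to the median widely expressed gene.

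The sequence near the start of each member was also searched for a PHR1-type element. The element GNATATNC, which is its own reverse complement and is thus searched on both strands at once, occurred between 250 bases before and 50 after the annotated start in 4 of 30 members (13.3%, exact binomial 95% interval 3.76% to 30.7%, which covers counting error only). It occurred in 29 of the 155 other induced genes (18.7%), in 7.37% of genes at the minimum level and in 6.09% of all 32826 promoters of that length. Within 1000 bases before the start the shares were 26.7% of members, 30.3% of other induced genes and 19.7% of all promoters. A match is a string of letters and not a measured binding site. The ChiC window printed below also holds ggatattc, a match more than 250 bases before the start that was not counted. The 4 windows follow from RefSeq, 5′ to 3′ on the strand of the gene, with the counted element in capitals. They cover, on TAIR10.1, chr5:1119803-1119890 (plus strand, element 94 bases before the start of AT5G04120), chr3:21156730-21156817 (plus strand, 241 before AT3G57157), chr3:7794875-7794955 (plus strand, 41 before AT3G22121) and chr4:10765985-10766072 (minus strand, 237 before ChiC).
AT5G04120: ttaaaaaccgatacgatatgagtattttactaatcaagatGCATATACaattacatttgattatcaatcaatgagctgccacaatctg
AT3G57157: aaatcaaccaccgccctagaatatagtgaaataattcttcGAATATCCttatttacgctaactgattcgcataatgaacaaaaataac
AT3G22121: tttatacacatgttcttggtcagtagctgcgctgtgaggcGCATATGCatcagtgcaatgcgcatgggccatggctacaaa
ChiC: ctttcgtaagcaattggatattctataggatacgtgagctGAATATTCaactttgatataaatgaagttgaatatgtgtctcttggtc
Both noncoding members are among the 4, and none of the 8 listed sulphur, glucosinolate or glutathione S-transferase members is. Beside shares of 13.3% of members and 6.09% of all promoters, 8 genes are too few to read an absence from.

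The members are spread over the genome, with 9, 3, 9, 5 and 4 genes on chromosomes 1 to 5. Apart from the GSTF pair, 3 members lie next to a gene that was induced but is no member. AT2G45135 lies 970 bases from SPX3, a repressor of phosphate signalling, which had means of 5.21 in phl2, 6.27 in deficient and 0.126 in sufficient wild type, a ratio of 0.831 beside 0.396 for AT2G45135. XTR6 lies 363 bases from the root hair gene XTH14, which had means of 6.28 in phl2, 6.32 in deficient and 1.71 in sufficient wild type. The third pair is LSU3 with LSU1. A member lies at or below 0.65 and an induced gene that is no member lies above it. Unlike ratios in these 3 pairs thus follow from the rule and say nothing about neighbours.

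Exons on the opposite strand overlap those of 8 members (26.7%), against 26.5% of other induced genes. The share was 38.2% of genes at the minimum level and 20.5% of all annotated genes. The whole of GSTF11 lies opposite exons of NAC045, which had levels of 0 in both phl2 columns, 0.180 and 0.0726 in deficient and 0 and 0.0536 in sufficient wild type. The whole of AT3G22121 lies opposite CWLP, a cell wall linker protein gene with 0.416 and 0.425 in phl2, 0.420 and 0.540 in deficient and 0 in both sufficient wild-type libraries. Both partners were far below the member that they lie opposite. Of the APR2 exons 46.4% lie opposite exons of AT1G08477, for which the table has no value, and of a serpin gene (AT1G62170) that was higher in phl2 than in either deficient library, with 2.49 and 2.04 in phl2, against 1.35 and 1.69 in deficient and 0.897 and 0.938 in sufficient wild type. The libraries mark strand, but whether the counting used it is not given in the sources used here, and the part of such overlaps in the members' values was not tested.

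At the limit of 0.65 the members just inside were AT3G22121 at 0.634, PRXCA at 0.637 and ChiC at 0.646. Just outside were AT5G53880, an uncharacterised protein, at 0.652, AT3G11230, a Yippee family protein, at 0.653, and MS2, a methionine synthase, at 0.654. At the limit on induction, the lowest deficient over the highest sufficient value was 2.08 for AT5G04120 and 2.11 for SUR1 inside, and 1.98 for UGT72E2 and 1.90 for HCT outside. The set has no gap at either border.

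Fewer cells of a type and less RNA per cell cannot be told apart in these bulk roots, and marker sums moved with the groups. Over 5 markers of root epidermis and hairs the summed level was 14.6 and 14.8 in phl2, against 14.8 and 15.2 in deficient and 5.91 and 5.24 in sufficient wild type. Over 6 photosynthesis genes typical of shoots it was 4.43 and 4.52 in phl2, against 8.63 and 7.39 in deficient and 15.3 and 15.5 in sufficient wild type. The photosynthesis sum thus differs between phl2 and deficient wild type in the direction of the members, and between deficient and sufficient wild type in the opposite one. Over 4 endodermis markers it was 4.37 and 4.43 in phl2, against 5.41 and 6.07 in deficient and 6.54 and 7.01 in sufficient wild type. Over 4 xylem markers it was 4.79 and 4.90 in phl2, against 4.84 and 4.81 in deficient and 7.93 and 9.20 in sufficient wild type. Over 3 phloem markers it was 2.36 and 2.41 in phl2, against 3.30 and 3.37 in deficient and 2.94 and 2.82 in sufficient wild type. The phloem sum thus differs in the direction of the members in both comparisons, though its phl2 values also lie below sufficient wild type. The endodermis sum differs in the same directions as the photosynthesis sum. No marker was at 0 in any library, and the part of these cell types in the members' values was not tested.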

How the data were processed

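The authors deposited 1 table of RPKM values per gene for 6 root libraries, with no further normalization recorded. TopHat2, DESeq2 and the TAIR10 genome are named, without versions or roles, per the submitters' processing notes. Columns were matched to samples by the labels. The members and the 15 gene lists were chosen with earlier results of these data known. Each library was rescaled as described above. Genes reaching 1 RPKM in at least 2 columns were fitted on log2(rescaled RPKM + 1), a scale that understates the change of low genes, with limma 3.58.1 in R 4.3.3 (trend, two-sided, Benjamini-Hochberg over 11463 genes). All groups entered 1 fit, with the phl2 columns averaged to 1 sample because they share reads. This left 2 residual degrees of freedom, and the p-values measure only the spread between these libraries. For the lone phl2 sample the spread of the wild-type groups was assumed. The script was tested on simulated data. Reads per gene were estimated from the worth of 1 read in genes with 1 transcript; only 41.4% to 47.2% of low values lay within 0.1 of a whole read, so these numbers are approximate and no count test was run. Genes were matched to the RefSeq annotation of TAIR10.1 by locus (32827 of 33602). Copies were found with blastn 2.17.0. The naming rule took members in a list, members with a mean of at least 5 in deficient wild type, those at the limit and those opposite other exons. The remaining members are named so that each is accounted for, after their values were seen.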

Additional observations from a re-analysis of the deposited data

How the results depend on the processing

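The number of members was 30, and 444 on the values as deposited, 5 with a phl2 limit of 0.5, 78 with a limit of 0.8, 19 with a 3-fold induction, 102 with a minimum level of 1 and 2 with a minimum level of 5. Leaving out 1 library at a time gave 29 to 50 members, the most without replicate 4, and 28 of the 30 were shared without replicate 3 or replicate 4. A median-of-ratios scaling gave 36 members and a 75th percentile scaling 43, with all 30 shared in both. In limma with Benjamini-Hochberg adjustment, deficient against sufficient wild type called 2385 genes, and 3720 as deposited, 266 with no filter, 4089 with both phl2 columns as replicates and 443 to 2792 without 1 library. The low end came without replicate 3 (443) and replicate 4 (481), where 21 and 26 members were still higher. For phl2 against deficient wild type it called 14 genes, and 2263 as deposited, 2 with a pseudocount of 0.1, 0 with no filter (3374 at unadjusted p under 0.05), 2617 with both phl2 columns as replicates and 0 to 252 without 1 library. The value of 2617 treats shared reads as independent. Without replicate 1 or replicate 2, 3 members were lower; without replicate 3 or replicate 4 the count was 0 (950 and 1339 genes at unadjusted p under 0.05). For phl2 against sufficient wild type it called 1208 genes, and 92 with no filter, 3659 with both phl2 columns as replicates and 316 to 1477 without 1 library, with 316 genes and 6 members without replicate 3 or replicate 4. The members' median ratio of phl2 to deficient wild type was 0.561, and 0.360 as deposited and 0.549 with median-of-ratios scaling; that of phl2 to sufficient wild type was 1.99, and 1.65 as deposited. The share of the members' promoters with the element was 13.3%. For the narrower GCATATTC and its reverse complement it was 0%, against 3.23% of other induced genes. That narrower share was 1.09% of genes at the minimum level and 0.740% of all promoters, so 0% of 30 members is near it. Within 1000 bases, a window added after seeing the data, the share of members with GNATATNC was 26.7%, against 19.7% of all promoters. The share was higher in this longer window in every set, so the interval of the shorter window does not apply to it. The other counts stayed within 1.5 times and the other medians within the spread between libraries. The 0.65 limit, the 2 wild-type libraries per group and the single phl2 sample limit the set. Members rest on about 5 to 114 reads per phl2 column (median 29), 13 to 262 in deficient (median 78.5) and 0 to 72 in sufficient wild type (median 11.5), so counting error alone is wide for the low ones. No paired analysis was possible because each replicate number occurs in 1 group only.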
